A study of Mus musculus with 8 samples.

Results

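Chemokines are small secreted proteins that direct the movement of cells along a gradient, and their classical receptors are G protein-coupled proteins on the surface of the responding cell. The family described here comprised every gene of the deposited count table whose symbol was Ccl, Cxcl, Xcl, Cx3cl, Ccr, Cxcr, Xcr, Cx3cr or Ackr followed by a number and at most 1 letter. This rule found 61 of 46517 genes, of which 39 were ligands, 18 were classical receptors and 4 were atypical receptors. The genes were followed across the 4 cell classes of the adult mouse liver, its 30 multilevel clusters and its 49 community clusters, which are the coarser and the finer grouping of the cells deposited by the authors.

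Chemokines are sorted by role. Homeostatic ligands such as *Cxcl12*, *Ccl19* and *Cxcl13* are made constantly by stromal cells or macrophages and hold lymphocytes and progenitors in place, whereas inflammatory ligands such as *Cxcl1*, *Ccl2* and *Cxcl10* are induced by cytokines and call in neutrophils, monocytes and T cells. Atypical receptors (*Ackr1* to *Ackr4*) bind chemokines without G protein signalling and take them up, carry them across a cell or remove them. In the liver, chemokines made by sinusoidal endothelium, Kupffer cells, stellate cells and cholangiocytes guide leukocytes in the sinusoids and the portal tracts.

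The cells came from adult male and female mice on a C57BL6/J background and were sorted singly by FACS for Smart-seq2, a full-length cDNA method without molecular identifiers. Per the study's methods, endothelial cells were sorted with antibodies against CD31 or VE-cadherin or a Cldn5-GFP reporter, Kupffer cells with an antibody against CD68, cholangiocytes with an antibody against EPCAM, and hepatocytes as unselected living cells. Mesenchymal cells were taken from mice heterozygous for a Pdgfrb-GFP, Pdgfra-H2bGFP or Acta2-GFP reporter or with an antibody against PDGFRα, so that a mesenchymal cell without activity of these promoters could be missed. The 8 samples were the male and the female cells of each class: 998 and 339 mesenchymal, 655 and 451 endothelial, 255 and 396 immune, and 358 and 39 epithelial cells, 3491 in all. No sample received a treatment, the livers were not perfused, which leaves leukocytes of the blood in the tissue, and the labels do not tie cells to single mice.

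The depth ranged from 47063 to 1128421 counts per cell, with a median of 228708. Each class carried its own marker genes. The 6 endothelial markers summed to 9681 counts per 1000000 counts (CPM) in endothelial cells, the 4 fibroblast markers to 8548 CPM in mesenchymal cells, the 6 Kupffer markers to 12931 CPM in immune cells and the 6 hepatocyte markers to 7850 CPM in epithelial cells. Immune cluster #i4, with 48 cells, also held 2342 CPM of endothelial and 625 CPM of fibroblast markers, and cluster #e8 held 950 CPM of Kupffer markers against 6.56 to 87.1 CPM in the other endothelial clusters. The cells lay on 22 plates, each filled from 1 sex, and the female mesenchyme was sampled on 1 of them, so sex and plate cannot be told apart there. Levels below are CPM of the summed counts of a sample or cluster, given as male and then female, and tests compared such sums, not cells. Because 2 sums per class were available and the number of mice behind each is not given, p-values measure only the spread between these sums. The 2 epithelial sums also differed in make-up. Of the 39 female cells 37 were cholangiocytes of cluster #p2, against 157 of the 358 male cells, the rest being hepatocytes. A difference between the male and the female epithelial level therefore cannot be told apart from this make-up. The clusters were drawn by the authors from the same transcriptomes, so part of any difference between clusters may come from how they were drawn.

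At least 1 member was counted in 3467 of 3491 cells, with a median of 6 members per cell. The 3 members *Cxcr1*, *Ccl21b* and *Ccl27b* had no count in any cell, and a further 8 were counted in fewer than 20 cells. A set of 45 members, 26 ligands, 15 receptors and the 4 atypical receptors, passed 20 CPM (5 CPM for receptors) in a class or cluster sum. The 16 others were *Ccl1*, *Ccl17*, *Ccl20*, *Ccl21b*, *Ccl22*, *Ccl26*, *Ccl27b*, *Ccl28*, *Cxcl3*, *Cxcl11*, *Cxcl15*, *Cxcl17*, *Xcl1*, *Ccr4*, *Ccr8* and *Cxcr1*.

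Mesenchymal cells carried the largest ligand total in both sexes, and male immune cells the largest receptor total. The levels of the 39 ligands summed to 4253 and 2938 CPM in mesenchymal, 2072 and 1806 CPM in immune, 910 and 583 CPM in endothelial and 382 and 557 CPM in epithelial cells. The 22 receptors, atypical ones included, summed to 1395 and 408 CPM in immune, 329 and 384 CPM in mesenchymal, 292 and 443 CPM in endothelial and 86.0 and 23.8 CPM in epithelial cells. The female immune sum was thus below the female endothelial sum. The mesenchymal rank rested on *Cxcl12*, without which the ligands summed to 812 and 539 CPM in mesenchymal and 2058 and 1762 CPM in immune cells. Per kilobase of exon, the leading members were *Cxcl12* (377 CPM per kb), *Ccl19* (132) and *Ackr3* (95.2) in mesenchymal cells, *Cxcl16* (124) and *Cxcl10* (95.2) in endothelial cells, *Ccl6* (277) and *Ccl24* (204) in immune cells, and *Cxcl1* (42.4) and *Cxcl16* (36.4) in epithelial cells.

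**Figure D1:**
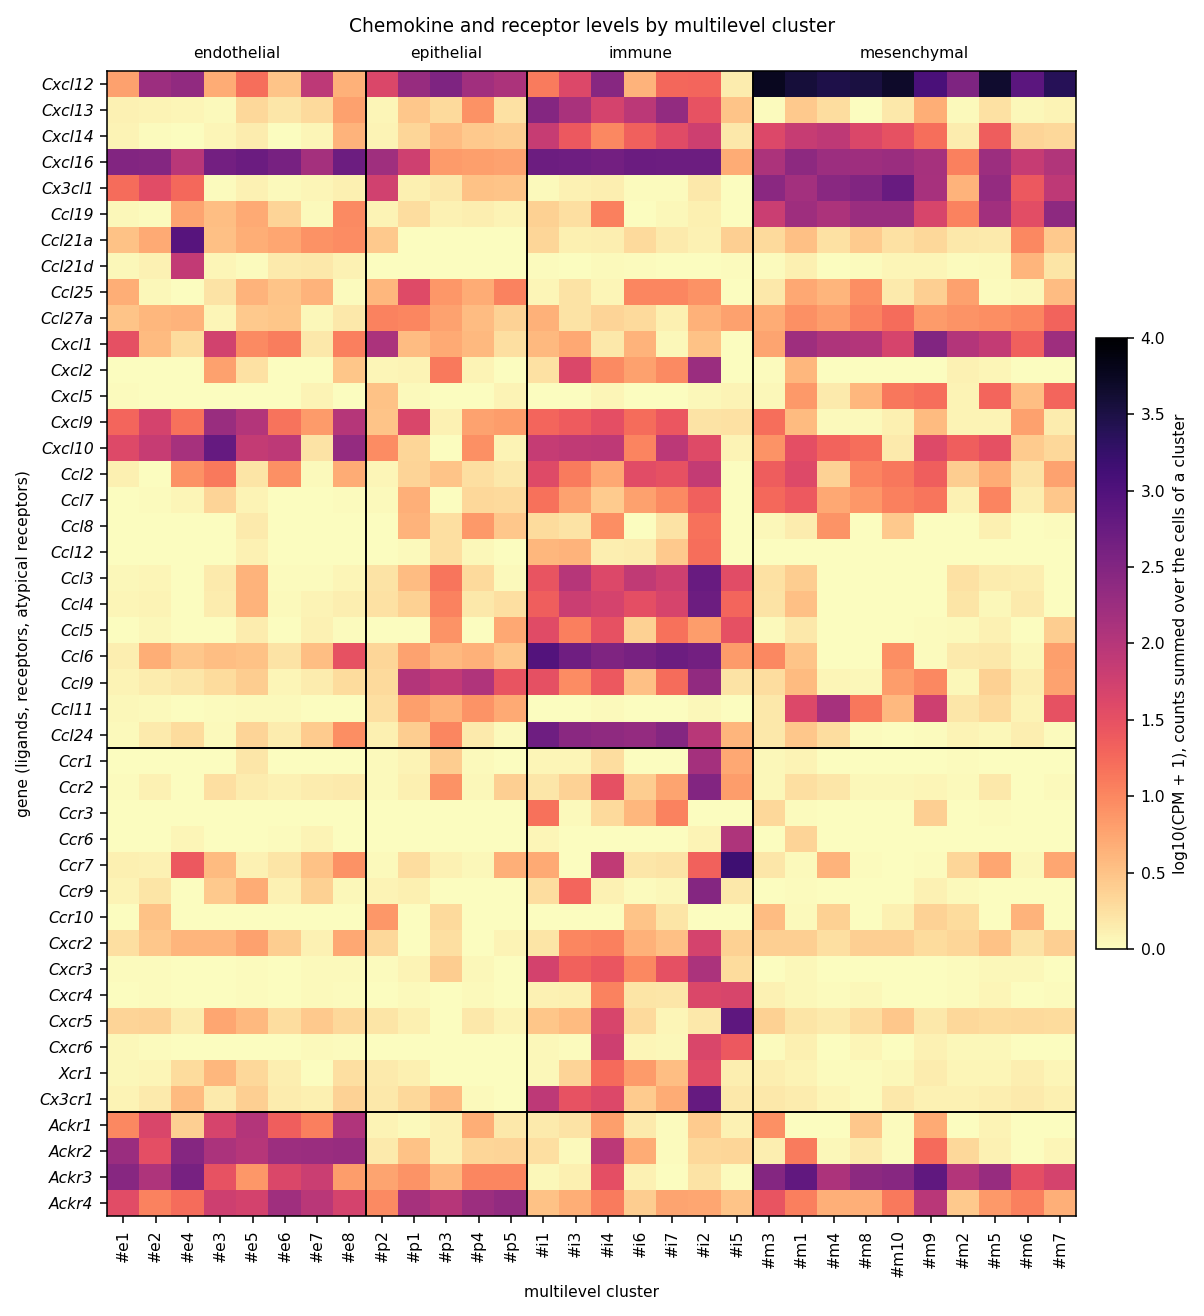
Heatmap of 44 members (rows) in the 30 multilevel clusters (columns, grouped by class), coloured by log10(CPM + 1) of the summed counts of each cluster. *Cxcl12* fills the mesenchymal columns, with 5713 CPM in #m3, whereas *Ccr7* and *Cxcr5* stand in the column of B cell cluster #i5 and *Cx3cr1* in that of #i2 (607 CPM).

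Each class was then compared with the mean of the other 3 on the log2 scale by edgeR's quasi-likelihood test over 24046 genes, 52 of them members, and a gene was called at a Benjamini-Hochberg adjusted p under 0.05 and an absolute log2 fold change of at least 1. In mesenchymal cells 8 members were higher and 4 lower, against 9.47% and 2.33% of all genes. In endothelial cells 8 were higher and 3 lower, where 5.33% and 2.96% of all genes were called. In immune cells 24 were higher and 4 lower (7.92% and 5.25% of all genes), and in epithelial cells 2 were higher and 5 lower (8.37% and 4.05%). The median log2 fold change of the 52 members was 3.57 in immune cells, −0.88 in mesenchymal cells, −1.66 in endothelial cells and −2.06 in epithelial cells, beside medians of 0.09, 0.02, 0.04 and −0.27 over all genes tested. All 4 comparisons share the same 8 sums. Because the class was set against the mean of the logs of the others, a member can be higher in a class without being highest there, which was so in at least 1 sex for *Ackr3* and *Cxcl10* in endothelial, *Cxcl1* and *Cxcl14* in mesenchymal, and *Cxcl1* and *Cx3cl1* in epithelial cells. The counts of called members moved with the fit. DESeq2 called 34 members in immune cells in either direction, 25 in endothelial, 21 in mesenchymal and 16 in epithelial cells. The share of all genes called by DESeq2 is not given here, so these counts cannot be set against a general rate. Without the male or female endothelial sum 2 or 3 of the 11 endothelial calls were left, without the male or female epithelial sum 0 of the 7 epithelial calls, without the male immune sum 14 of the 28 immune calls and without the male mesenchymal sum 6 of the 12 mesenchymal calls. Without either mesenchymal sum, 6 endothelial calls were left.

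*Cxcl12*, the ligand that retains haematopoietic cells and lymphocytes through *Cxcr4*, was the most abundant member by far, with 1050581 counts in 2059 cells. It lies on chromosome 6 (117168535 to 117181367, plus strand, GRCm38). Its level was 3441 and 2399.6 CPM in mesenchymal cells, 93.4 and 62.8 CPM in epithelial, 21.8 and 62.4 CPM in endothelial and 14.1 and 44.1 CPM in immune cells. The lowest mesenchymal sum was thus more than any sum of another class, and 99.6% of mesenchymal cells held a count (95% exact binomial interval 99.1 to 99.9%). The log2 fold change of mesenchymal cells was 6.05 ± 0.53 (SE, adjusted p = 5.1e-04, edgeR), and that of immune cells was −2.78 ± 0.67 (adjusted p = 0.029), a call that was lost without the male immune or the male epithelial sum (adjusted p up to 0.13).

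Within the mesenchyme, *Cxcl12* was highest in the stellate cell cluster. Cluster #m3 holds the hepatic stellate cells, the pericyte-like, vitamin A-storing cells of the liver. Of its 187 cells, 113 lay in #m3c, the capsular stellate cells of the study, and 72 in #m7c, its other stellate cells. The cluster had 5781 and 5397 CPM, and all of its cells held a count. The portal fibroblast clusters #m10, #m1 and #m8 followed with 4698, 3704 and 3355 CPM, and #m5 had 4400 CPM. Cluster #m5 is counted with the mural clusters here, but 87 of its 122 cells lay in #m5c, which the study took for second layer cells of the vein wall. The lowest mesenchymal levels were 769 CPM in #m6 and 351 CPM in the arterial smooth muscle cluster #m2. When #m3 was compared with the fibroblast and mural clusters over 22365 genes, 3 of 44 members tested were higher and 1 was lower, against 2.19% and 0.282% of all genes. *Cxcl12* was higher by 1.42 ± 0.23 on the log2 scale (adjusted p = 0.0045, edgeR), in both sexes (5781 against 2598 CPM in male, 5397 against 2285 CPM in female sums), and none of the 18 fits that left out 1 sum lost this call. The 2 other higher calls rested on few counts: *Ccl28* had 144 counts in #m3, 115 of them in 1 female cell, and the call of *Ackr1* (308 counts, 6.39 ± 1.52, adjusted p = 0.046) was lost in 13 of 18 such fits, the male and the female #m3 sum among them (adjusted p up to 0.63), and without #m5 (adjusted p = 0.057).

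*Cxcl12* was also higher in fibroblast than in mural clusters. Of 44 members tested, 6 were higher and 0 lower in fibroblasts, against 2.25% and 0.966% of 22365 genes, 1 member was lower at an unadjusted p under 0.05, and DESeq2 called 9 members in either direction. By size of the fold change these were *Cxcl14* (4.43 ± 0.81, adjusted p = 0.0037), *Ccl11* (4.23 ± 0.66, adjusted p = 8.3e-04), *Cx3cl1* (3.23 ± 0.52, adjusted p = 0.0011), *Ackr3* (2.37 ± 0.37, adjusted p = 7.3e-04), *Cxcl16* (1.78 ± 0.39, adjusted p = 0.014) and *Cxcl12* (1.40 ± 0.18, adjusted p = 1.2e-04, edgeR). All 6 were higher in the male and in the female sums. Of these 6, only the call of *Cxcl16* was lost when 1 sum was left out, without the male or female #m5 sum or the male #m7 sum (adjusted p up to 0.061). Without all of #m5, an alternative chosen after seeing the data because of its second layer cells, all 6 were called among 8 members. Over sums per plate, however, only *Cx3cl1* and *Cxcl12* of the 6 were called, with adjusted p from 0.052 to 0.33 for the others. Fibroblasts are the collagen-producing cells of the portal tract and the vessel wall, and mural cells the smooth muscle and pericytes of the vessels.

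*Cxcr4*, the signalling receptor of *Cxcl12*, had 1839 counts in 116 cells of the whole series and was found mainly in 2 clusters. It had 45.4 CPM in B cell cluster #i5 (34 of 58 cells) and 41.4 CPM in the mixed myeloid cluster #i2 (28 of 65 cells), and at most 0.123 CPM in any mesenchymal, endothelial or epithelial sum. *Ackr3*, the atypical receptor that takes up *Cxcl12*, was instead highest in the class with most of the ligand. Its level was 297 and 360 CPM in mesenchymal, 56.6 and 147 CPM in endothelial, 6.11 and 3.75 CPM in epithelial and 0.426 and 3.23 CPM in immune cells. Of 1337 mesenchymal cells, 1332 held a count of *Cxcl12*, 888 of *Ackr3* and 885 of both. With *Cxcl12* in nearly all cells, this overlap was set by the share with *Ackr3*. The *Ackr3* level was 692 CPM in cluster #m9 of Wt1 fibroblasts (1105 CPM in its community cluster #m11c), 651 CPM in portal fibroblast cluster #m1 and 297 CPM in #m3, and it fell to 48.1 CPM in #m7 and 32.5 CPM in #m6. Within the stellate cells, the capsular cluster #m3c had 422 CPM and #m7c had 91.8 CPM of *Ackr3*, while *Cxcl12* had 4960 and 6991 CPM there.

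**Figure D2:**
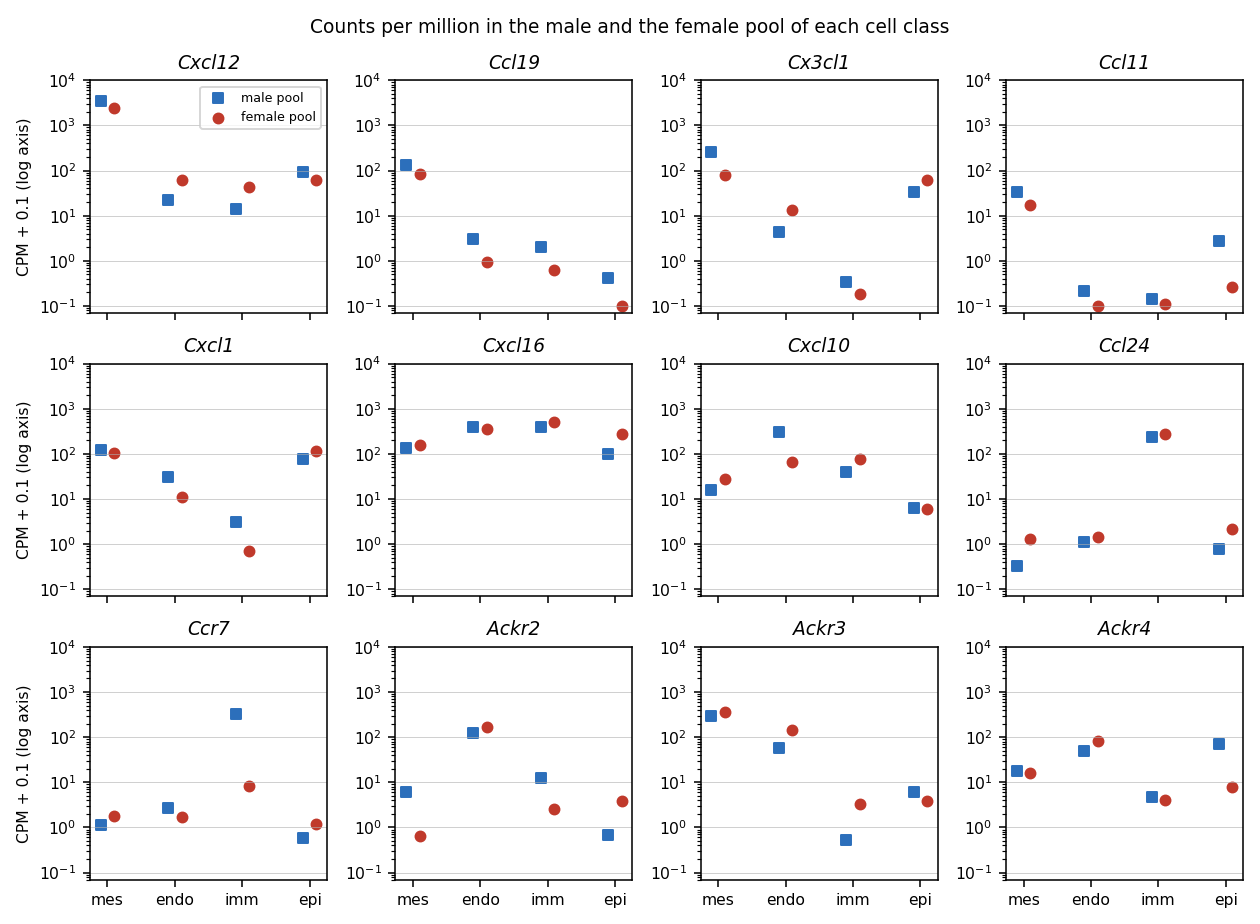
CPM of 12 members in the male and the female sum of each of the 4 classes, on a log axis of CPM + 0.1, with 1 point per sum. The mesenchymal points of *Cxcl12* at 3441 and 2399.6 CPM stand apart from those of the other classes, and the male and female immune points of receptors such as *Ccr7* at 325 and 8.18 CPM lie far from each other.

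The second homeostatic axis is that of *Ccr7*, the receptor that brings B cells, T cells and dendritic cells to lymphoid tissue, with its ligands *Ccl19* and *Ccl21*. *Ccl19* had 130 and 85.4 CPM in mesenchymal cells and at most 2.88 CPM in any other sum. It was higher in mesenchymal cells by 7.11 ± 0.79 on the log2 scale (adjusted p = 0.0012, edgeR) and lower in epithelial cells by −4.75 ± 1.12 (adjusted p = 0.029), the second call being lost without the male or female epithelial or the male mesenchymal sum (adjusted p up to 0.088). A count was found in 81.6% of mesenchymal cells (exact interval 79.4 to 83.6%). The clusters ran from 243 CPM in the portal vein mural cluster #m7 through 180 and 177 CPM in portal fibroblast clusters #m10 and #m8 to 61.8 CPM in stellate cluster #m3 and 9.96 CPM in arterial smooth muscle cluster #m2. The highest *Ccl19* cluster was thus not that of *Cxcl12*, which peaked in #m3, whereas #m2 was lowest for both.

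*Ccl21a*, by contrast, marked lymphatic endothelium. Its level was 1020 and 795 CPM in cluster #e4, the 22 lymphatic endothelial cells, where 7 of 9 male and 12 of 13 female cells held a count, and at most 8.95 CPM in any other cluster. *Ccl21d*, a near-identical copy, had 88.0 and 70.1 CPM in #e4, and since reads of such copies can be split or lost in counting, the members of the *Ccl21* group are uncertain relative to each other. In the comparison of #e4 with the other endothelial clusters, 5 of 33 members tested were higher and 0 lower, against 4.92% and 1.88% of 18321 genes, 2 were lower at an unadjusted p under 0.05, and DESeq2 called 6 members in either direction. *Ccl21d* was higher by 8.36 ± 1.03 (adjusted p = 1.3e-04, edgeR) and *Ccl21a* by 7.63 ± 0.56 (adjusted p = 6.4e-07), and both calls held in all 16 fits that left out 1 sum. Across classes, endothelial cells were higher in *Ccl21d* by 5.05 ± 1.03 (adjusted p = 0.022), a call lost in 6 of 8 such fits (each endothelial, epithelial and mesenchymal sum, adjusted p up to 0.25), and in *Ccl21a* by 4.46 ± 0.74 (adjusted p = 0.01), lost without the female endothelial sum (adjusted p = 0.14).

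The other 3 calls in #e4 rested on 1 sum each. *Cxcl12* (5.004 ± 1.085, adjusted p = 0.0092, edgeR) and *Cx3cl1* (5.53 ± 1.17, adjusted p = 0.0076) had 710 and 54.3 CPM in the male and 0.837 and 0.279 CPM in the female #e4 sum. Of the *Cxcl12* counts of #e4, 98.7% came from 1 male cell, which also held 87 of the 88 *Cx3cl1* counts and 124 *Ccr7* counts, no count of *Ccl21a* and 1552 counts of fibroblast markers. Without the male #e4 sum both log2 fold changes were below 0 (−3.87 and −1.21, adjusted p = 0.5 and 1). *Ackr3* (3.201 ± 0.775, adjusted p = 0.018) had 83.0 and 537 CPM in #e4 and was not called without the female sum (1.33, adjusted p = 0.63). With sex as a block, the call of *Cxcl12* (adjusted p = 0.13) and that of *Ackr3* (adjusted p = 0.063) were lost.

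*Ccr7* itself was a B cell gene in these data. Its level was 1444 CPM in #i5, in 52 of 58 cells, and at most 78.2 CPM in any other cluster (#i4, in 2 cells). Because cells of #i5 were all male, the immune sums differed between the sexes, the male one having 325 CPM and the female one 8.18 CPM. The 24.49 CPM of *Ccr7* in #e4 came to 97.6% from the male cell described above.

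*Cx3cl1* encodes a membrane-anchored ligand that both attracts and captures cells bearing *Cx3cr1*, such as monocytes. It had 262 and 79.0 CPM in mesenchymal, 33.5 and 61.7 CPM in epithelial, 4.19 and 13.0 CPM in endothelial and 0.235 and 0.0851 CPM in immune cells. Mesenchymal cells were higher by 5.52 ± 0.63 (adjusted p = 0.0014, edgeR) and immune cells lower by −7.94 ± 1.09 (adjusted p = 0.0029), calls that held without any 1 sum. Epithelial cells were higher by 2.84 ± 0.62 (adjusted p = 0.021), although the male epithelial level lay below the mean of the other male sums, and this call was lost without either epithelial sum (adjusted p up to 0.1). In the mesenchyme the gene was highest in portal fibroblast cluster #m10 (570 CPM, 108 of 127 cells), followed by #m8 (316 CPM), peribiliary fibroblast cluster #m4 (271 CPM) and #m3 (260 CPM), and it was 3.25 CPM in arterial smooth muscle cluster #m2.

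In the endothelium *Cx3cl1* was counted mainly in central vein cluster #e1 and in a few cells around the bile ducts. The level was 17.1 and 13.8 CPM in #e1 (12 of 152 cells), 35.5 CPM in portal vein cluster #e2 and 16.97 CPM in #e4, and at most 0.295 CPM in the mean of #e3, #e5, #e6, #e7 and #e8 of either sex. Most of the #e2 level came from the 14 peribiliary cells of #e5c, since the 114 portal vein cells of #e2c had 0.195 CPM, and the #e4 level came from the male cell described above. Clusters #e3, #e5, #e6 and #e8 were sinusoidal in the study's annotation, and #e7 is set with them here although the study's text assigned it to the central vein. In the comparison of these 5 clusters with #e1, #e2 and #e4 over 18321 genes, 0 of 33 members tested were higher and 2 were lower, against 0.759% and 1.16% of all genes, 5 were higher at an unadjusted p under 0.05, and DESeq2 called 7 members in either direction. *Cx3cl1* was lower in the 5 clusters by −7.36 ± 1.23 (adjusted p = 0.004, edgeR), with means of 0.0701 against 26.7 CPM in male and 0.295 against 24.1 CPM in female sums. *Ackr3* was lower by −3.68 ± 0.68 (adjusted p = 0.0081), with 18.1 against 120 CPM in male and 30.4 against 355 CPM in female sums. Neither call was lost in the 16 fits without 1 sum, and neither was called over sums per plate. Both held with #e7 moved to the veins (−5.76 and −3.81, adjusted p = 0.022 and 0.009) and without the cells of #e5c (−4.92 and −3.68, adjusted p = 0.036 and 0.0086), alternatives chosen after seeing the data. The 14 cells of community cluster #e5c, the vessels around the bile ducts, had 1246 CPM of *Cxcl12* (831 and 1474 CPM, 9 of 14 cells) and 285 CPM of *Cx3cl1*, of which 82.5% came from 1 cell, whereas #e2c had 19.8 CPM of *Cxcl12*.

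*Cxcl16*, a transmembrane ligand for *Cxcr6* on T and natural killer T cells, was the most widely counted member, with 251740 counts in 2513 cells. It had 388 and 351 CPM in endothelial, 396 and 512 CPM in immune, 138 and 156 CPM in mesenchymal and 98.9 and 272 CPM in epithelial cells, and no class comparison called it. The endothelial clusters ran from 533 CPM in #e5 and 516 CPM in #e8 to 145 CPM in #e7 and 89.1 CPM in #e4, and the Kupffer clusters from 442 to 539 CPM. In #e5c it was 29.4 CPM against 332 CPM in #e2c. *Cxcr6* had 2118 counts in 53 cells. Of these, 46.4% came from 1 cell of #i2 with 1528 counts of T and NK cell markers, and 31.9% from 1 cell of #i4 with 1071 such counts, and no cluster of T or NK cells was named in the series.

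*Cxcl13*, the ligand that draws B cells through *Cxcr5*, was a Kupffer cell gene, with 109 and 188 CPM in immune cells and at most 1.40 CPM in any other sum. It ran from 48.7 CPM in #i4 to 301 CPM in #i1 among the Kupffer clusters, was 29.4 CPM in #i2 (72.4% of it from 1 cell), and was not among the 5 largest of the 24 higher calls. It was lower in mesenchymal (−2.33 ± 0.52, adjusted p = 0.024, edgeR), endothelial (−2.89 ± 0.54, adjusted p = 0.017) and epithelial cells (−2.14 ± 0.53, adjusted p = 0.034). These 3 calls were lost in 5, 3 and 8 of the 8 fits without 1 sum, with adjusted p up to 0.23, 0.17 and 0.13. The first 2 were lost without either endothelial or the female immune sum, the first also without either mesenchymal sum, and the epithelial one also with sex as a block (adjusted p = 0.051). In the mesenchyme, the 6 mesothelial cells of #m16c had 70.9 CPM, but 99% of it came from 1 cell. *Cxcr5* had 716 CPM in B cell cluster #i5 (46 of 58 cells). Of these 58 cells 52 held *Ccr7*, and 41 held counts of both *Cxcr5* and *Ccr7*, an overlap that was not tested.

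*Cxcl14*, a ligand with no settled receptor, was present in fibroblasts, stellate cells and immune cells. It had 54.5 and 25.1 CPM in immune, 39.4 and 23.96 CPM in mesenchymal and at most 0.782 CPM in other cells. It was lower in endothelial (−4.71 ± 0.99, adjusted p = 0.025, edgeR) and epithelial cells (−3.74 ± 0.95, adjusted p = 0.038). The endothelial call was lost without either endothelial or the male mesenchymal sum (adjusted p up to 0.15), and the epithelial call was lost in 6 of 8 fits, without either epithelial or mesenchymal sum or the male endothelial or immune sum (adjusted p up to 0.15). Its cluster levels were 81.9 CPM in peribiliary fibroblasts (#m4), 67.0 CPM in #m1 and 41.1 CPM in #m3, where community cluster #m7c had 100 CPM and #m3c 5.91 CPM, and they ran from 8.73 to 67.1 CPM in the Kupffer clusters, with 57.4 CPM in #i2. *Ccl25*, the gut and thymus ligand of *Ccr9*, peaked at 37.2 CPM in hepatocyte cluster #p1, all of it from 1 cell, and *Ccl27a*, a skin-homing ligand of *Ccr10* with near-identical copies, was at most 18.9 CPM (#m7).

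The interferon-inducible ligands *Cxcl9*, *Cxcl10* and *Cxcl11* share the receptor *Cxcr3* of activated T cells and plasmacytoid dendritic cells, and all 3 were called higher in endothelial cells. *Cxcl10* had 308 and 67.5 CPM in endothelial, 39.6 and 77.2 CPM in immune, 16.1 and 27.5 CPM in mesenchymal and 6.37 and 5.94 CPM in epithelial cells, so that the female endothelial and female immune sums were close. *Cxcl9* had 111 and 29.4 CPM in endothelial, 10.2 and 24.2 CPM in immune, 6.49 and 11.3 CPM in epithelial and 3.81 and 1.12 CPM in mesenchymal cells. *Cxcl11* was higher in endothelial cells by 5.73 ± 1.10 (adjusted p = 0.018, edgeR), with 1258 of its 1312 counts there, a call lost without the male endothelial or either mesenchymal sum (adjusted p up to 0.43). *Cxcl10* (3.15 ± 0.52, adjusted p = 0.01) and *Cxcl9* (3.17 ± 0.66, adjusted p = 0.025) were also called higher, and they lie outside the 5 largest and were singled out after their values were seen. The call of *Cxcl10* was lost without the male endothelial sum (adjusted p = 0.25), and that of *Cxcl9* without the male endothelial, either epithelial or the female mesenchymal sum (adjusted p up to 0.4). *Cxcl10* was lower in epithelial cells (−3.38 ± 0.72, adjusted p = 0.019), which was lost without either epithelial sum (adjusted p up to 0.11).

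*Cxcl9* and *Cxcl10* are neighbours on chromosome 5, as are *Cxcl1* and *Cxcl2*, and the upstream sequence of these 4 inducible genes is shown because they are known for their induction by interferon or by NF-kappaB signals. The stretches are the 250 bases before the RefSeq start on the strand of each gene (GRCm38.p6, chr5:92328080-92328329 for *Cxcl9* and chr5:92348890-92349139 for *Cxcl10*, both minus strand, chr5:90890995-90891244 for *Cxcl1* and chr5:90903649-90903898 for *Cxcl2*, both plus strand). Capitals mark the letters GAAANNGAAA, a form of the interferon-stimulated response element, and GGGNNNTTCC, a form of the kappaB site, found on either strand.
Cxcl9: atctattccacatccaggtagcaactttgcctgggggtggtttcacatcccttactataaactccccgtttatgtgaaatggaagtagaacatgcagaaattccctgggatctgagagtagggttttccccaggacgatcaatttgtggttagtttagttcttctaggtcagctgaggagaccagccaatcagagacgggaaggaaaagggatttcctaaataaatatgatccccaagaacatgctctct
Cxcl10: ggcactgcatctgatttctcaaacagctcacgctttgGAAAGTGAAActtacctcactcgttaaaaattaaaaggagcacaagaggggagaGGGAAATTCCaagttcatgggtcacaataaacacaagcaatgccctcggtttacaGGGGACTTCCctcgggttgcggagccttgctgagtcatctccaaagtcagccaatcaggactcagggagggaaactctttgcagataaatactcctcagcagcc
Cxcl1: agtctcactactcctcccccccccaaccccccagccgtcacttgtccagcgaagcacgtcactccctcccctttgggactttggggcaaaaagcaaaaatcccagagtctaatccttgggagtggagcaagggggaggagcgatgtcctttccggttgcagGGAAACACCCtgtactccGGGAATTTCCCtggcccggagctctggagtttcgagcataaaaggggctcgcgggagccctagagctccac
Cxcl2: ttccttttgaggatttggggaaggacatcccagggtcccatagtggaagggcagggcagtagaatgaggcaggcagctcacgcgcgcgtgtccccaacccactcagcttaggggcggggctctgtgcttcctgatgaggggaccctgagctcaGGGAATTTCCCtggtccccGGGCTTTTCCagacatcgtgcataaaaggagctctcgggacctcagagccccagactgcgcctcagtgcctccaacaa
The *Cxcl10* stretch held 1 match of the interferon element, starting 213 bases upstream, and kappaB matches at 159 and 104 bases. The *Cxcl1* stretch held kappaB matches at 89, 71 and 70 bases and the *Cxcl2* stretch at 97, 96 and 78 bases, where the neighbours 71 and 70, and 97 and 96, are the same letters read on both strands. The *Cxcl9* stretch held neither. Of 46 members with an entry, 3 held the interferon element (*Ccl19*, *Cxcl10* and *Cxcl14*) and 9 the kappaB letters (*Ccl1*, *Ccl20*, *Ccl9*, *Ccr3*, *Ccr6*, *Cxcl1*, *Cxcl10*, *Cxcl2* and *Cxcl3*) in the full window of 300 bases, beside 3.44% and 5.56% of all 32851 windows of that length. A match is a description of the letters and no measure of binding.

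Within the endothelium *Cxcl10* was highest in sinusoidal cluster #e3 (616 and 808 CPM, the second from only 6 cells, with a count in 210 of all 236 cells), followed by #e8 (132 and 247 CPM), and it was 0.709 CPM in #e7. *Cxcl9* was also highest in #e3 (187 and 176 CPM), with 106 CPM in #e5, 100 CPM in #e8 and 5.75 CPM in #e7. Counts of both were found in 131 of 236 cells of #e3 and in 252 of all 1106 endothelial cells, where 399 held *Cxcl9* and 497 *Cxcl10*. The 141 CPM of *Cxcl10* in lymphatic cluster #e4 came to 94.9% from 1 cell. The comparison of sinusoidal clusters with #e1, #e2 and #e4 called neither gene.

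The summed level of 17 immediate early genes, which respond to dissociation, was highest in the cluster with most *Cxcl10* and lowest in that with least, with 13134 CPM in #e3 and 766 CPM in #e7. Between them the order differed. Cluster #e8 had 7944 CPM of these genes and 209 CPM of *Cxcl10*, #e1 and #e2 had 7756 and 7746 CPM but 39.0 and 67.6 CPM of *Cxcl10*, and #e4, #e6 and #e5 had 5267, 4196 and 3031 CPM beside 141, 84.3 and 73.1 CPM of *Cxcl10*. Of the 2 plates with most #e3 cells, that with 20660 CPM of immediate early genes had 1140 CPM of *Cxcl10* and that with 12218 CPM had 540 CPM. For *Cxcl9* the values were 175 and 193 CPM on these plates. The summed level of 12 interferon-stimulated genes ranged from 1240 to 1741 CPM over the 8 endothelial clusters, with 1423 CPM in #e3. Clusters also differed in their plates, since 192 and 30 of the 236 #e3 cells lay on the 2 plates with most #e3 cells. On another plate, all 41 endothelial cells together had 0.0784 CPM of *Cxcl10*. The part of dissociation or plate in these levels was not tested.

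**Figure D3:**
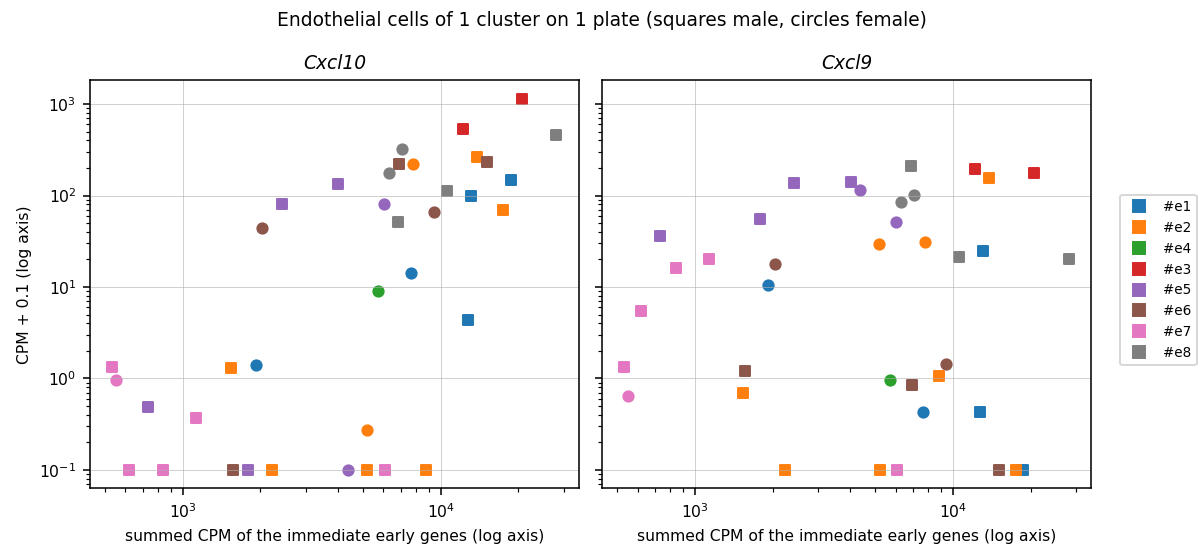
CPM of *Cxcl10* and *Cxcl9* against the summed CPM of 17 immediate early genes, each point being the endothelial cells of 1 cluster on 1 plate (at least 5 cells), on log axes. Points of #e7 lie at the bottom, between 0 and 1.25 CPM of *Cxcl10*, and the 2 largest plates of #e3 lie at 540 and 1140 CPM. Some plates of #e2, #e5 and #e6 also lie at 0 CPM of *Cxcl10*.

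*Cxcr3*, their receptor, was counted in 14.4% of immune cells (exact interval 11.8 to 17.4%). It had 65.2 and 24.2 CPM in immune cells and at most 0.469 CPM in another sum, and was higher in immune cells by 9.24 ± 0.79 (adjusted p = 3.9e-04, edgeR). It was lower in mesenchymal (−3.75 ± 0.97, adjusted p = 0.041) and endothelial cells (−4.46 ± 1.01, adjusted p = 0.034). Each of these 2 calls was lost in 5 of 8 fits, without either mesenchymal or endothelial sum or the male immune sum (adjusted p up to 0.26 and 0.22), and the mesenchymal one also with sex as a block (adjusted p = 0.056). The *Cxcr3* level was 123 CPM in #i2, 50.3 CPM in #i1 and 31.3 CPM in #i7.

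Neutrophil-attracting ligands act through *Cxcr2*. *Cxcl1* had 124 and 107 CPM in mesenchymal, 77.1 and 115 CPM in epithelial, 30.2 and 11.2 CPM in endothelial and 2.94 and 0.621 CPM in immune cells. It was lower in immune cells by −4.99 ± 0.85 (adjusted p = 0.0074, edgeR), without exception in the 8 fits but not over sums per plate (adjusted p = 0.054), and higher in epithelial cells by 2.48 ± 0.56 (adjusted p = 0.024), a call lost without either epithelial or the female mesenchymal sum (adjusted p up to 0.098). Among mesenchymal clusters the male level was highest in #m9 (404 CPM, 185 CPM in female cells) and the female level in #m7 (254 CPM, from 13 cells). Cluster #m1 had 236 and 114 CPM, and stellate cluster #m3 was lowest (4.78 and 4.16 CPM). The difference of #m3 from the fibroblast and mural clusters was −4.48 ± 0.85 (adjusted p = 0.012), and it was not called without either #m3 sum (adjusted p up to 0.12). Immediate early genes summed to 3614 CPM in #m3 and 16927 CPM in #m9, but to 3780 CPM in #m5, where *Cxcl1* was 72.6 CPM, and to 25678 CPM in #m2, where it was 104 CPM. Their part in the level of *Cxcl1* was not tested.

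*Cxcl2* was a myeloid gene, with 69.8 and 7.61 CPM in immune cells, 180 CPM in #i2 and 494 CPM in the 10 male cells of #i3, where 88.4% of the whole cluster's counts came from 1 cell. On the plate with most #i2 cells it had 289 CPM in #i2, beside 14990 CPM of immediate early genes, and it had no count in #i2 on 2 other plates, which had 5098 and 5029 CPM of these genes. *Cxcl5* had 7.33 and 6.29 CPM in mesenchymal cells and at most 1.56 CPM elsewhere, and was higher there by 5.63 ± 1.30 (adjusted p = 0.026, edgeR), which was lost without either mesenchymal, the male endothelial or the female immune sum (adjusted p up to 0.093). Its highest clusters were #m7 and #m5 (18.3 and 18.1 CPM), in 5 of 76 and 14 of 122 cells. *Cxcr2* was counted in 727 cells but with 2841 counts in all. The 3 cells with most of them, all in #i2, held 12.2%, 10.8% and 10.3%, and had 1060, 0 and 724 counts of neutrophil markers.

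The inflammatory ligands *Ccl6* and *Ccl9* were highest in immune cells in both sexes. *Ccl6*, a rodent ligand of *Ccr1*, had 537 and 475 CPM in immune cells, where 91.4% of cells held a count (exact interval 89.0 to 93.4%), and at most 6.25 CPM in other sums. Kupffer clusters ranged from 335 CPM (#i4) to 925 CPM (#i1), and #i2 had 448 CPM. The 30.2 CPM in endothelial cluster #e8 stood beside the Kupffer marker level of that cluster given above. *Ccl9*, also a *Ccr1* ligand, had 88.1 and 12.52 CPM in immune and 33.4 and 4.69 CPM in epithelial cells, with 221 CPM in #i2, and 114 and 104 CPM in hepatocyte clusters #p4 and #p1.

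*Ccl3* and *Ccl4*, ligands that attract macrophages and lie side by side on chromosome 11, shared their highest cluster but differed over plates. Of 651 immune cells, 247 held a count of *Ccl3*, 217 of *Ccl4* and 131 of both. *Ccl3* had 221 and 58.4 CPM and *Ccl4* 189 and 44.8 CPM in immune cells, against at most 1.40 and 1.18 CPM in any other sum. Both were highest in #i2 (574 and 507 CPM), and the Kupffer clusters ranged from 27.8 to 98.4 CPM for *Ccl3*. In #i3 the 10 male cells had 572 CPM of *Ccl3* and 537 CPM of *Ccl4*, the 99 female cells 59.9 and 24.9 CPM. On the same 3 plates *Ccl3* had 886, 215 and 50.3 CPM and *Ccl4* 688, 247 and 261 CPM in #i2, and the male #i3 cells came mostly from the first of them (9 of 10 cells, 18840 CPM of immediate early genes there). The part of dissociation or plate in the levels of *Cxcl2*, *Ccl3* and *Ccl4* was not tested. *Ccl5*, a ligand typical of T and NK cells, had 22.9 and 13.9 CPM in immune cells and was at most 36.8 CPM (#i1), where 54.6% came from 1 cell.

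*Ccl2* and *Ccl7*, the main ligands of *Ccr2*, were shared by immune and mesenchymal cells. *Ccl2* had 41.3 and 25.0 CPM in immune, 18.9 and 7.599 CPM in mesenchymal and 6.59 and 1.92 CPM in endothelial cells, and was lower in epithelial cells by −4.48 ± 0.97 (adjusted p = 0.02, edgeR), a call lost without either epithelial sum (adjusted p up to 0.11). It was 73.8 CPM in #i2, 38.8 CPM in portal fibroblast cluster #m1 and 22.5 CPM in #m3, where 97.7% came from 1 cell. *Ccl7* was 23.8 CPM in #m1, 20.6 CPM in #i2 (98.5% from 1 cell) and at most 16.8 CPM in other clusters. *Ccl8* was at most 14.3 CPM (#i2) and *Ccl12* at most 15.5 CPM (#i2), all of it from 1 cell with 7011 counts of Kupffer markers.

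The eosinophil-attracting ligands were split between cell types. *Ccl11* was mesenchymal, with 34.1 and 17.5 CPM against at most 2.66 CPM elsewhere (7.69 ± 1.29, adjusted p = 0.007, edgeR, held without any 1 sum). Peribiliary fibroblast cluster #m4 had 156 and 33.2 CPM, #m9 had 56.0 and 60.1 CPM and #m1 had 55.3 and 28.3 CPM. *Ccl24* was a Kupffer cell gene, with 238 and 279 CPM in immune cells against at most 2.03 CPM elsewhere (8.14 ± 0.62, adjusted p = 2.9e-04, held without any 1 sum), and 206 to 501 CPM in the Kupffer clusters against 93.0 CPM in #i2. It was lower in mesenchymal cells by −3.33 ± 0.76 (adjusted p = 0.025), which was lost without the female endothelial, the female immune or the male mesenchymal sum (adjusted p up to 0.12). Their receptor *Ccr3*, known from eosinophils, had 1183 of 1281 counts in immune cells, in 19 cells, and 98 in mesenchymal cells. It was counted in 0 of 1106 endothelial and 0 of 397 epithelial cells, which allows shares of up to 0.271% and 0.756%, so that its fitted fold change of 9.77 (adjusted p = 0.0033) depends on the prior count. The 19 immune cells with *Ccr3* lay in Kupffer clusters, with 14.2 CPM in #i1 and 9.88 CPM in #i7.

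Several receptors were highest in 1 immune cluster each, as the plot of 13 receptors over the immune community clusters shows. B cell cluster #i5 carried *Ccr7*, *Cxcr5*, *Ccr6* (115 CPM, 12 of 58 cells) and *Cxcr4*, and all 12 cells with *Ccr6* also held *Ccr7*, as did 52 of all 58 cells. Counts of *Ccr7* and *Cxcr5* were also found in 44 and 31 of the 117 cells of Kupffer cluster #i1, at 4.11 and 1.98 CPM. The 41 cells of #i2c, monocyte-derived macrophages by the study's annotation, had 1181 CPM of *Cx3cr1* (26 cells), 394 CPM of *Ccr2* (27 cells) and 286 CPM of *Ccr1* (14 cells), and 17 of the 41 held both *Cx3cr1* and *Ccr2*. Beside 921 CPM of monocyte or monocyte-derived macrophage markers, #i2c held markers of other cells. These were 669 CPM of Kupffer, 469 CPM of conventional dendritic, 272 CPM of neutrophil and 218 CPM of T or NK cell markers. The part of such cells in its receptor levels was not tested. The monocyte list was not specific, with 1174 CPM in portal vein cells (#e2c) and 923 CPM in stellate cells (#m7c). The 16 plasmacytoid dendritic cells of #i7c had 1031 CPM of *Ccr9* (15 cells), 368 CPM of *Ccr2* (8 cells) and 168 CPM of *Cxcr3* (10 cells). *Ccr9* guides plasmacytoid dendritic cells to the gut, and their 3 marker genes summed to 6359 CPM in #i7c, which also held 2314 CPM of monocyte and 765 CPM of conventional dendritic markers. *Xcr1*, the receptor of cross-presenting dendritic cells, was 71.5 CPM in #i2c, where 7 of 41 cells held a count. The 3 cells of #i2c with most of it had 363, 212 and 206 counts, beside 902, 2 and 0 counts of conventional dendritic markers.

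Of the largest higher calls in immune cells, that of *Ccr1* (8.37 ± 1.66, adjusted p = 0.014, edgeR) rested on 49.6 CPM in male but 0.0851 CPM in female cells and was lost without the male immune sum or either epithelial sum (log2 fold change down to 0.23, adjusted p up to 1).

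**Figure D4:**
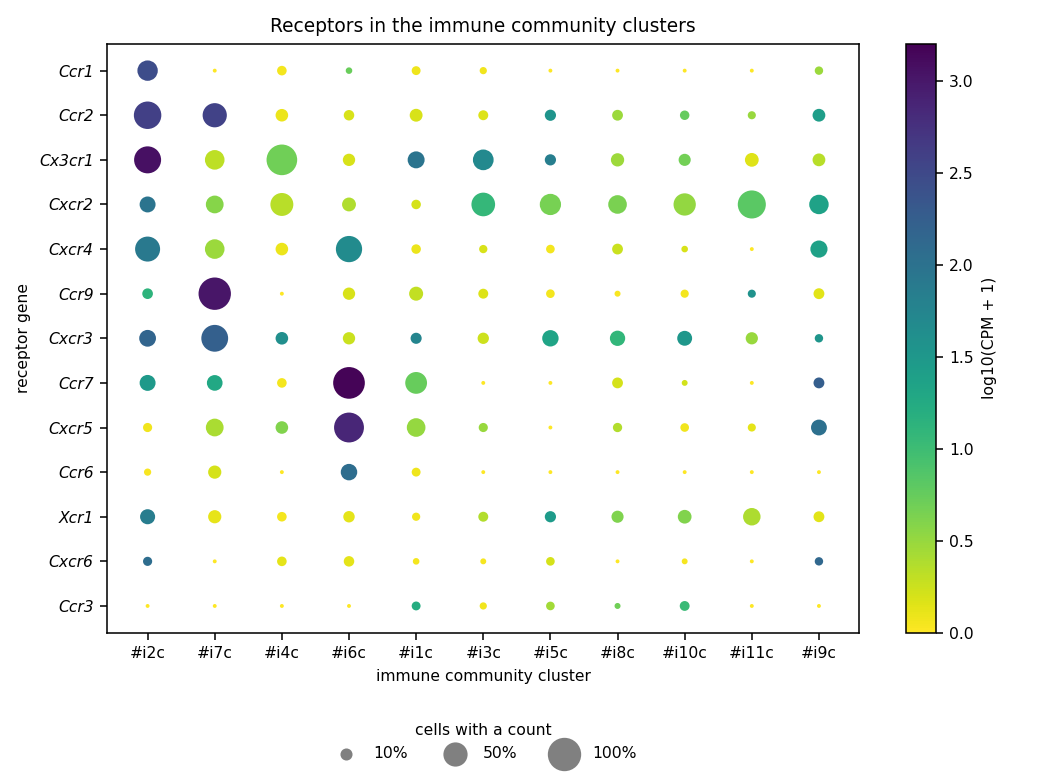
Dot plot of 13 receptors over the 11 immune community clusters, with the dot size giving the percentage of cells with at least 1 count and the colour the CPM of the summed counts. *Ccr7* and *Cxcr5* stand in the B cells, *Cx3cr1*, *Ccr2* and *Ccr1* in #i2c (1181, 394 and 286 CPM), and *Ccr9* in #i7c (1031 CPM).

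Most myeloid cells outside the Kupffer clusters lay in multilevel cluster #i2, which held 63 male and 2 female cells and gave 1 sum. Of its 65 cells, 40 were of #i2c, 16 of #i7c and 9 of #i4c, and #i4c is a Kupffer cluster by the study's annotation, with 12780 CPM of Kupffer markers over all its cells. Of 48 members tested, 6 were higher and 0 lower than in the Kupffer clusters, against 2.77% and 0.0995% of 20110 genes, 0 were lower at an unadjusted p under 0.05, and DESeq2 called 3 members in either direction. *Ccr1* was higher by 10.61 ± 2.69 (adjusted p = 0.0083, edgeR), *Ccr9* by 9.17 ± 2.33 (adjusted p = 0.0086), *Ccr2* by 6.59 ± 2.02 (adjusted p = 0.042) and *Cx3cr1* by 5.33 ± 1.40 (adjusted p = 0.012). *Ccl17* was called on 148 counts, all in 1 cell that also held 6215 counts of Kupffer markers, against 7 in the Kupffer clusters. *Ccr7* was called with 20.3 CPM in #i2, although the mean of the female Kupffer sums was 21.5 CPM. The #i2 sum has no replicate and was assumed to vary like the other immune clusters, and with sex as a block 0 of these calls were left (adjusted p of 0.87 to 1 for the 5 named with a fold or count). Leaving out 1 sum also ended the call of *Ccr1* (female #i7, adjusted p = 0.06), *Ccl17* (male #i1, adjusted p = 0.072), *Cx3cr1* (female #i6 or #i7, adjusted p up to 0.069) and *Ccr2* (either #i1 or #i3 sum, female #i6 or #i7, adjusted p up to 0.1), but not that of *Ccr9*. Without the 9 cells of #i4c, an alternative chosen after seeing the data, 9 members were called, 5 of the 6 among them, and *Ccl17* was no longer among the genes tested.

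Of the 4 atypical receptors, 3 were called higher in endothelial cells, and each had its own pattern over the clusters. *Ackr2*, which scavenges inflammatory CC chemokines and is known from lymphatics, had 125 and 167 CPM in endothelial cells and at most 12.4 CPM in other sums. It was higher by 5.24 ± 0.94 (adjusted p = 0.014, edgeR), a call lost without the female endothelial sum (adjusted p = 0.058). It was counted in 40.51% of endothelial cells (exact interval 37.6 to 43.5%) and was spread over lymphatic, central vein and sinusoidal cells, with 290 CPM in #e4, 192 CPM in #e8, 179 CPM in #e1 and #e7 and 174 CPM in #e6. It was lowest in portal vein cluster #e2 (32.5 CPM) and had 0.9 CPM in #e5c.

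*Ackr1*, the Duffy antigen, carries chemokines across venules. It had 45.8 and 38.4 CPM in endothelial cells and at most 2.20 CPM in other sums, and was higher by 5.17 ± 1.07 (adjusted p = 0.024, edgeR). This call was lost in 5 of 8 fits, without either endothelial or epithelial sum or the female immune sum (adjusted p up to 0.098). Its highest clusters were the sinusoidal #e8 (140 and 97.8 CPM, the male level from 3 of 35 cells) and #e5 (102 and 115 CPM), with 43.3 CPM in #e2 and 8.93 CPM in #e1, and 212 CPM in community cluster #e8c. Although counted in 16.9% of endothelial cells (exact interval 14.7 to 19.2%), it had 20 counts or more in 7.59%.

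*Ackr4* removes *Ccl19*, *Ccl21* and *Ccl25*, and it was shared by endothelium and hepatocytes. It had 50.3 and 82.8 CPM in endothelial, 70.5 and 7.81 CPM in epithelial, 17.9 and 15.9 CPM in mesenchymal and 4.60 and 4.03 CPM in immune cells, and no class comparison called it. The female epithelial sum held 37 cholangiocytes among its 39 cells, so sex and cell type cannot be told apart in it. The highest clusters were the pericentral and periportal hepatocytes #p5 and #p4 (212 and 173 CPM), followed by endothelial cluster #e6 (38.8 and 214 CPM). In the mesenchyme #m9 had 91.8 CPM and #m3 27.7 CPM.

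*Ackr3* completed the set in the veins and in some lymphatic cells, with 397 CPM in #e4, 277 CPM in #e1, 115 CPM in #e2 and 5.73 CPM in #e8. The #e4 level rested on few cells. Of its 2056 counts, 794 and 600 came from 2 female cells with 1 count of *Ccl21a* each. A further 106 came from the male cell with 1552 counts of fibroblast markers. The class comparison called *Ackr3* higher in endothelial cells as the last of its 8 calls (2.74 ± 0.63, adjusted p = 0.036, edgeR), although the mesenchymal level was higher, and this call was lost in 6 of 8 fits, without either endothelial, epithelial or mesenchymal sum (adjusted p up to 0.35).

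**Figure D5:**
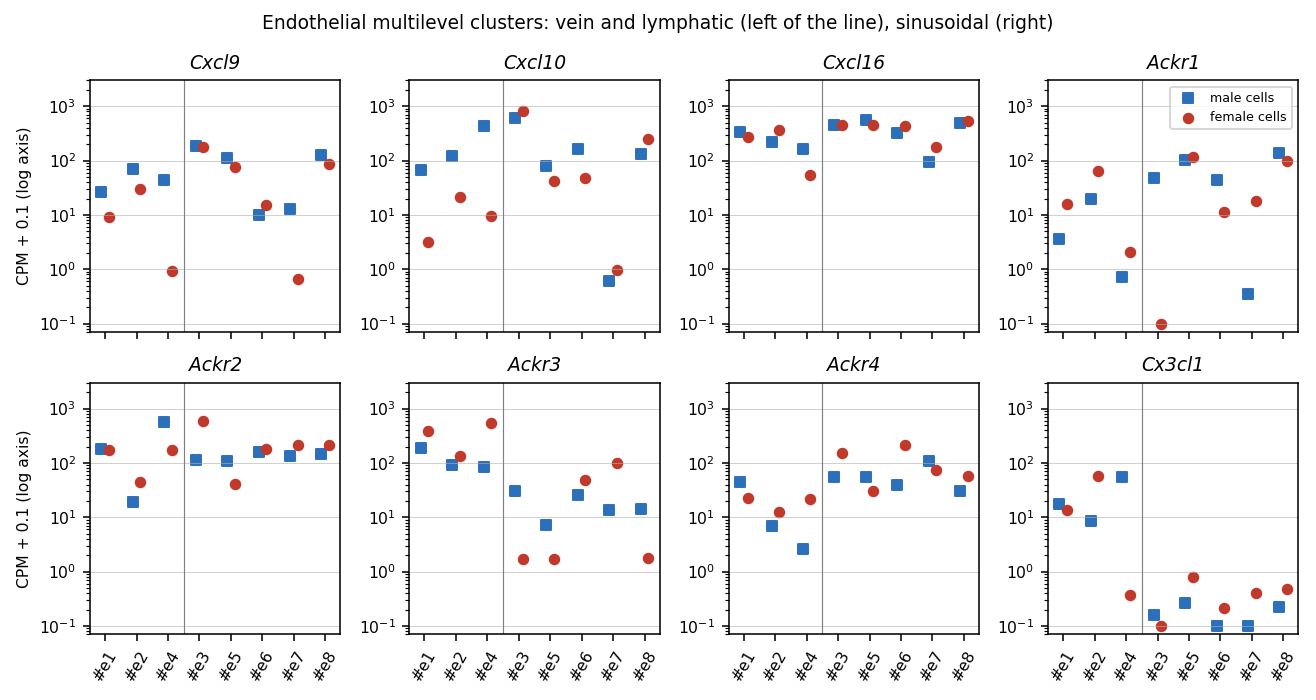
CPM of *Cxcl9*, *Cxcl10*, *Cxcl16*, *Ackr1* to *Ackr4* and *Cx3cl1* in the male and the female sum of each endothelial cluster, with a line between the vein and lymphatic clusters (#e1, #e2, #e4) and the clusters compared with them (#e3, #e5, #e6, #e7, #e8). *Ackr3* is high left of the line (277 CPM in #e1 and 115 CPM in #e2), the *Cx3cl1* points of #e2 and #e4 rest on few cells, and *Cxcl10* peaks in #e3 at 616 and 808 CPM, the female value from 6 cells.

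Cholangiocytes, the lining cells of the bile ducts, and hepatocytes differed in 10 members, of which 2 (*Ccl9* and *Ackr4*) were also called over sums per plate. Cluster #p2 (157 male and 37 female cells) was compared with hepatocyte clusters #p1, #p3, #p4 and #p5, which gave male sums only and left 1 residual degree of freedom. On 1 plate lay 56 of 59 #p4, 56 of 57 #p5 and 19 of 23 #p3 cells, but only 8 of 194 #p2 cells. Cell type and plate thus cannot be fully told apart in this comparison. Of 34 members tested, 4 were higher and 6 lower in #p2, against 28.6% and 8.67% of 16694 genes. The median log2 fold change was 1.38 over all genes tested and −0.94 over the members. *Cx3cl1* was higher by 5.15 ± 0.96 (53.8 and 63.3 CPM against 1.30 CPM, adjusted p = 1.9e-04, edgeR), *Cxcl1* by 4.96 ± 0.79 (125 and 117 against 2.62 CPM, adjusted p = 3.6e-05) and *Cxcl16* by 3.66 ± 0.66 (150.2 and 278 against 17.96 CPM, adjusted p = 1.4e-04). *Ccr10* was called on 391 counts, 388 of them in 1 male cell, against 4 in hepatocytes. The summed immediate early level was 12061 CPM in #p2 and 298 to 1621 CPM in the hepatocyte clusters, and its part in these differences was not tested.

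Hepatocytes held more *Ackr4* and *Ccl9*. *Ccl9* was lower in #p2 by −5.68 ± 1.02 (0.587 and 4.81 CPM against 81.0 CPM, adjusted p = 1.3e-04, edgeR) and *Ackr4* by −4.97 ± 0.80 (8.43 and 8.01 against 157 CPM, adjusted p = 3.9e-05). *Ccl8* had 1 count in #p2 and 131 in hepatocytes. *Ccl11* (−3.82 ± 1.503, adjusted p = 0.049) and *Ccl25* (−2.98 ± 1.14, adjusted p = 0.043) were lost in 4 and 2 of the 4 fits without 1 hepatocyte sum (adjusted p up to 0.086 and 0.18), *Ccl25* without #p1 or #p5. The call of *Ccr10* was lost without #p1, #p4 or #p5 (adjusted p up to 0.098) and that of *Ccl8* without #p1 or #p4 (adjusted p up to 0.08). *Cxcl12* was the sixth lower member, with 120 to 349 CPM in the hepatocyte clusters, highest in #p3, and 42.1 CPM in #p2.

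Of 26 other genes of the chemokine pathway (signalling proteins, regulators and related ligands), 16 were higher and 2 lower in immune cells (7.92% and 5.25% of all genes, as above), among them *Vav1* (8.98), *Rgs1* (8.94), *Dock2* (7.36) and *Rac2* (7.32, all log2 fold changes), which act in leukocyte migration. In mesenchymal cells 4 were higher and 7 lower (9.47% and 2.33% of all genes), the higher ones being *Rarres2* (4.82), the precursor of chemerin, its receptor *Cmklr1* (2.73), the receptor kinase *Grk5* (2.99) and the signalling brake *Rgs16* (2.44). *Cmklr1* and *Rgs16* were not highest there, with 10.2 and 7.36 CPM in female mesenchymal cells beside 11.1 and 7.64 CPM on average over the remaining female sums, and each was near 0 in 1 class (at most 0.0434 CPM of *Cmklr1* in epithelial and 0.0882 CPM of *Rgs16* in immune cells). In endothelial cells 2 were higher and 5 lower (5.33% and 2.96%), with *Dpp4* (4.34), a peptidase that truncates chemokines, and *Arrb1* (1.92) higher. In epithelial cells 3 were higher and 5 lower (8.37% and 4.05%). In cholangiocytes 9 of 24 tested genes were higher and 3 lower, beside 28.6% and 8.67% of all genes. Of the 26 genes, #e4 had 3 higher and 1 lower (4.92% and 1.88% of all genes), the sinusoidal comparison 1 higher and 2 lower (0.759% and 1.16%) and #m3 had 1 higher and 0 lower (2.19% and 0.282%), and neither #i2 nor the fibroblast clusters had any called.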

How the data were processed

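Single-cell transcriptomes were measured by Smart-seq2 in 8 samples, the male and the female cells of 4 classes. The authors deposited raw read counts per gene and cell (featureCounts of Subread, with Bowtie or Bowtie2, Seurat, bcl2fastq, GRCm38 and mm10 also named in their processing notes), after removing cells with few counts or genes, much mitochondrial or spike-in signal, or signs of other cells, and putative doublets by a limit on genes per cell, beside a doublet gate in the sort. Smart-seq2 libraries do not mark strand, so overlapping genes and near-identical copies are uncertain. The 92 spike-in rows were left out. Cell classes and both levels of clusters are those of the authors.

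Counts were summed per class or cluster and sex (at least 5 cells) and tested with edgeR 4.0.16 in R 4.3.3 (TMM, filterByExpr, quasi-likelihood test, Benjamini-Hochberg adjustment over all genes tested). Calls needed an adjusted p under 0.05 and an absolute log2 fold change of at least 1. CPM are counts per 1000000 gene counts of the sum, and CPM per kb use the exons of 60 members in the GENCODE annotation of GRCm38. Cell shares have exact binomial intervals (95%), and a count of 0 allows up to 3 counts. Both cover counting error only, since reads without molecular identifiers are not independent molecules. The steps were tested on simulated data. DESeq2 1.42.0, no filter, upper-quartile factors, cells thinned to 40000 counts, sums per plate, at least 10 cells per sum, sex as a block and leaving out each sum were alternatives. No further doublets were called here.

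Members, gene lists and comparisons were chosen with earlier results of these data known. Values are given for members reaching 20 CPM (receptors 5 CPM) in a class or cluster sum by sex, and per comparison for up to 5 called members in each direction, by size of the fold change, except for items that are not reported here. Sums of the same sex shared deviations from the class means (correlation 0.128 to 0.208 over 6 pairs of classes), as did mesenchymal clusters in 23 of 28 pairs (0.0448 to 0.241, counting correlations over 0.1) and endothelial clusters in 3 of 28 (−0.0168 to 0.121). Such sums are linked by sex and, for part of their cells, by plate, and none is tied to single mice, so the fit without the block is the main one.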

Additional observations from a re-analysis of the deposited data

How the results depend on the processing

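Shares of all genes called are not given for the alternatives below, so their member counts cannot be set against a general rate. With DESeq2 21 members in place of 12 were called in mesenchymal, 25 in place of 11 in endothelial and 16 in place of 7 in epithelial cells, 7 in place of 2 in sinusoidal clusters and 3 in place of 6 in #i2, of which 2 were shared. Without the filter on low counts the numbers were 22 in mesenchymal, 25 in endothelial and 18 in epithelial cells, 4 in sinusoidal clusters, 8 in #e4 (5 in the main analysis) and 8 in #m3 (4). Of the named calls 62 held without this filter and 1 was lost. Sums per plate gave 17 in endothelial and 14 in epithelial cells, 10 in #m3, 2 in #e4, 0 in sinusoidal clusters, 2 in fibroblasts against mural cells (6) and 2 in cholangiocytes (10), and of 59 named calls they ended 21 and reversed 2. The calls ended were *Ccl24* and *Cxcl13* in mesenchymal, *Cxcl13* in endothelial, *Cxcl1* in immune and *Cx3cl1*, *Cxcl1* and *Cxcl13* in epithelial cells, both in sinusoidal clusters, *Ackr3* in #e4, 4 in fibroblasts and 7 in cholangiocytes. With sex as a replicate block 3 members were called in #e4 and 0 in #i2, where 1 sum stands for the cluster, 2 class calls were lost (*Cxcr3* in mesenchymal and *Cxcl13* in epithelial cells), and no other call of a named member changed. For the cholangiocytes alone, no paired analysis was possible because no residual degrees of freedom were left. On sums per plate *Cxcl12* and *Cx3cl1* reversed in #e4 (−3.61 and −0.81 on the log2 scale), as with at least 10 cells per sum (−3.89 and −1.16), which leaves out the male #e4 sum and also ended the calls of *Cx3cl1* in sinusoidal clusters (adjusted p = 0.053), *Ccr2* in #i2 (0.074) and *Ackr1* in #m3 (0.055).

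When each sum was left out in turn, an alternative chosen after seeing the data because leaving out a whole sex left no residual degrees of freedom, the members called ranged from 7 to 13 in mesenchymal, 2 to 11 in endothelial, 14 to 29 in immune and 0 to 10 in epithelial cells, 2 to 4 in sinusoidal clusters, 4 to 7 in #e4, 3 to 10 in #i2, 1 to 4 in #m3, 5 to 7 in fibroblasts and 6 to 9 in cholangiocytes. Upper-quartile factors changed no call of the 63 named. Thinning ended 8 of them (*Ccl24* and *Cxcl13* in mesenchymal, *Cxcr3* in endothelial and *Cxcl13* in epithelial cells, *Cx3cl1* and *Ackr3* in #e4, *Ccl8* and *Ccl11* in cholangiocytes). Further alternatives chosen after seeing the data ended none of the calls they were run on: 33 class calls without the cells of #i4, 5 without cluster #i4, 7 without #e7, 2 with #e7 among the veins, 7 without the cells of #e5c and 4 without the #i4c cells of #i2. Without #m5, 8 of 9 calls held and that of *Ackr1* in #m3 was lost. With at least 20 counts as the limit of detection, the share of cells moved for all 45 members.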

Other observations

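Whether a difference between clusters differed between the sexes was tested with an interaction term. Of 18321 genes in the comparison of sinusoidal with vein and lymphatic clusters, 0 passed an adjusted p of 0.05 and 470 had an unadjusted p under 0.05 (edgeR). Of the 33 members only *Cxcl10* was among these. Its female minus male difference was 4.14 on the log2 scale (adjusted p = 1, edgeR). In the comparison of fibroblast with mural clusters, 0 of 18250 genes passed and 412 had an unadjusted p under 0.05, 3 of the 32 members among them.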
